A study of Homo sapiens with 12 samples.

Results

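The genes described here are 10 members of the oxidative stress and iron storage programme: the transcription factor NRF2 (gene NFE2L2), its inhibitor KEAP1, the ferritin subunits FTH1 and FTL, and the cytoprotective genes SQSTM1, HMOX1, TXNRD1, SRXN1, GCLM and SOD2. They were taken by name from 57500 gene identifiers in the count tables, and all 10 were among the 16402 genes with enough counts to be tested. The cells were THP-1, a human monocytic line established from a leukaemia, and every group carried a lentiviral non-target shRNA, so no group was free of transduction. Cells were held for 4 h in pH-buffered medium at 5% CO2 (normocapnia) or 10% CO2 (buffered hypercapnia), and 1 group at each CO2 level received 2.5 µg/ml LPS, the bacterial endotoxin sensed by TLR4, for the last 2 h. Each of the 4 groups had 3 libraries, 12 in all, of poly(A)-selected RNA read in pairs. The comparisons address whether raised CO2 changes these genes at rest and under an inflammatory stimulus, and how LPS changes them at each CO2 level. The labels name no separate cultures for the replicates. The p-values therefore reflect the spread among these libraries alone, and that spread may be technical.

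NRF2 is held at a low protein level by KEAP1, which directs its ubiquitination. Oxidants and electrophiles modify KEAP1, and NRF2 then accumulates and binds antioxidant response elements with small MAF proteins as partners. Its targets supply glutathione, reduce thioredoxin and peroxiredoxin, degrade haem and store iron. Ferritin is also set by translation through iron-responsive elements, which mRNA levels do not show. SOD2, the mitochondrial manganese superoxide dismutase, is best known in monocytes as an NF-kappaB target that inflammatory stimuli raise strongly.

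Because antioxidant response elements are the sites through which NRF2 acts, the sequence upstream of the members' starts was read for their core, TGACNNNGC, on both strands. Windows ran from 250 bases before to 50 bases after each RefSeq transcript start on GRCh38.p14. Of the 10 members 8 had an entry, 16 windows in all. FTH1 and HMOX1 had no entry, so their upstream sequence was not read. The core was found in 3 of these 8 genes, KEAP1, TXNRD1 and GCLM. Of all 35116 windows in the table, 13.3% held it, and 16.1% of 27305 genes had it in at least 1 window. The consensus motif of NF-kappaB was found in 0 of the 8 members, in 11.3% of all windows and in 13.3% of the 27305 genes. A match is a description of the letters only. The stretches below are shown because they hold the cores upstream of the start in these 3 genes, whose mRNA levels moved by at most 1.33-fold in any comparison. Each is written 5′ to 3′ on the gene's strand with the cores in capitals.
KEAP1, chr19:10502772-10502865, minus strand: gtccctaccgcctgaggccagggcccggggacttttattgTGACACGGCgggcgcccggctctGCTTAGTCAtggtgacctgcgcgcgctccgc
TXNRD1, chr12:104215640-104215728, plus strand: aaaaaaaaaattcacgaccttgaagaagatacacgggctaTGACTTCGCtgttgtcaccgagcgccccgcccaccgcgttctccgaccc
TXNRD1, chr12:104286890-104286978, plus strand: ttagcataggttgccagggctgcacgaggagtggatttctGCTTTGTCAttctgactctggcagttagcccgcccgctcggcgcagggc
GCLM, chr1:93909431-93909504, minus strand: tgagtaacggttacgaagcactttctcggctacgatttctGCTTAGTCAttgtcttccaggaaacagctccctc
The GCLM core and the second core of KEAP1 are the same 9 letters, GCTTAGTCA, read here as the reverse complement of the motif. They begin 34 and 31 bases before the start, respectively. A further match in TXNRD1 reaches past the start and is not shown.

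Depth was 17.1 to 22.2 M counts per library. The 12 monocytic markers fixed for THP-1 were each above 1 CPM (counts scaled to a common library size) in every library, and the summed level of 5 LPS-response genes was 108 to 198 CPM without and 10047 to 13129 CPM with LPS. Counts on the mitochondrial genome made up 1.31 to 1.96% of all counts at 5% CO2 and 2.01 to 3.05% at 10% CO2 without LPS, and 1.28 to 1.78% and 2.28 to 4.15% with LPS. This share moved with CO2, and its part in the CO2 results below was not tested. The 4 T cell markers, which sum to 1.51 to 2.17 CPM at 5% and 0.668 to 1.14 CPM at 10% CO2, were carried by TRAC, and the defining markers CD3D, CD3E and CD2 reached at most 0.191, 0.0591 and 0.0551 CPM in any library. The erythroid marker HBA1 was at 0 in every library. Levels of members are given as TMM-normalised CPM, which compares libraries for 1 gene, and as TPM, which also divides by the summed exon length and allows genes to be compared.

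LPS changed more of the 10 genes than CO2 did. At 5% CO2 LPS raised 6 of the 10 (NFE2L2, FTH1, FTL, SQSTM1, SRXN1 and SOD2), against 24.9% of all genes called in that comparison (11.8% higher and 13.1% lower). At 10% CO2 it raised the same 6 and GCLM and lowered KEAP1, 8 of 10, against 35.2% of all genes called (16.6% higher and 18.6% lower). Called means an adjusted p (Benjamini-Hochberg, all tested genes) below 0.05 in edgeR's quasi-likelihood test. The median log2 change of the 10 members was 0.67 at 5% CO2 and 0.68 at 10% CO2, while over all genes tested it was -0.01 and -0.02. The members were chosen with earlier results of these data known. These figures therefore do not test whether they respond more than other genes. The LPS comparisons at 5% and 10% CO2 share no library. The members together took 0.337 to 0.431% of all counts in the 6 libraries without LPS and 1.21 to 1.72% in the 6 libraries with LPS. In bulk RNA, a change in the RNA made per cell and a change in which cells are present cannot be told apart.

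**Figure D1:**
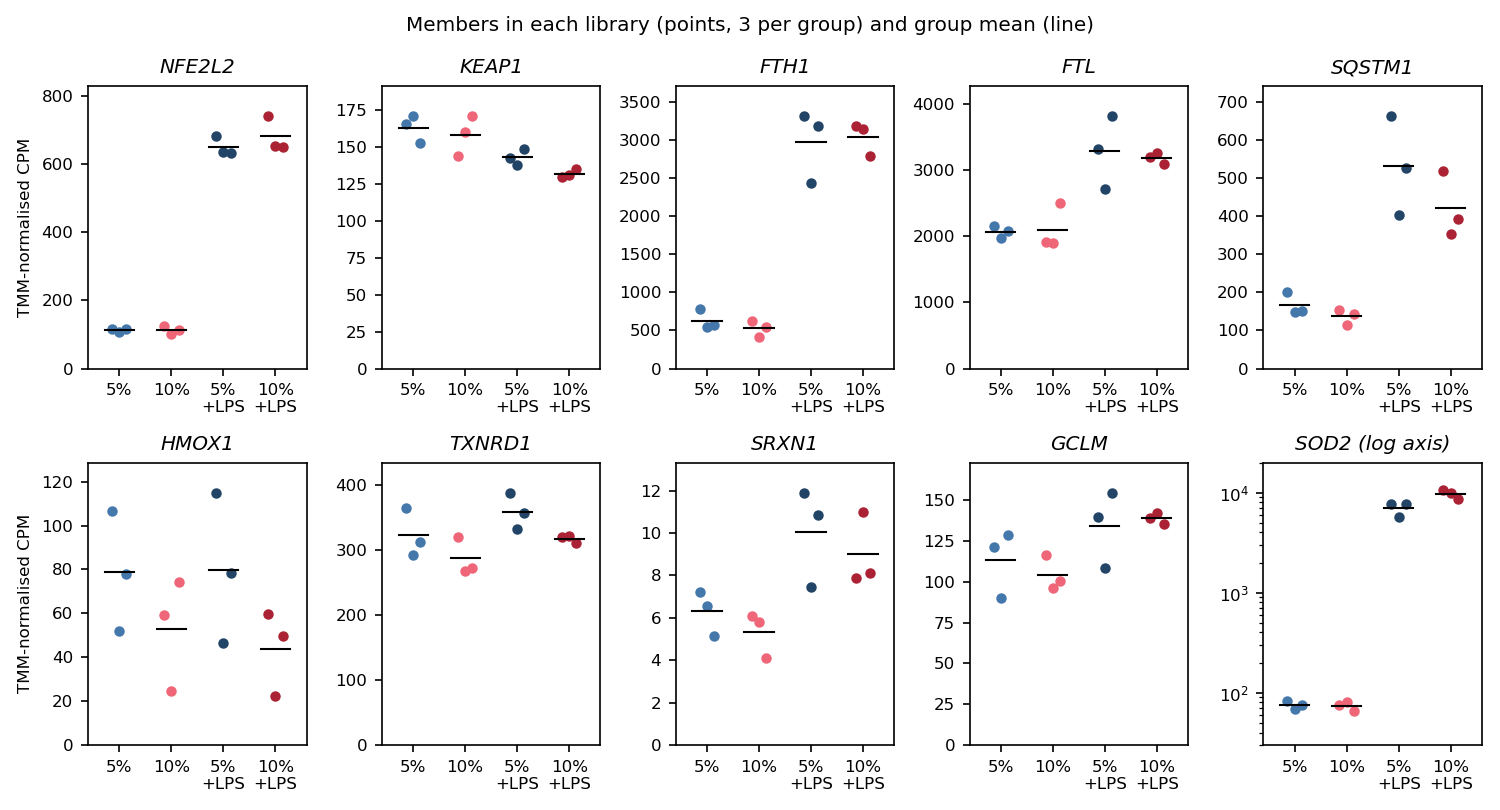
TMM-normalised CPM of the 10 genes in each of the 12 libraries (points, 3 per group) with the group mean (line); axes start at 0 except for SOD2, which is on a log axis. NFE2L2, FTH1, SQSTM1 and SOD2 with LPS lie above all libraries without LPS, while HMOX1 spreads more within groups than between them.

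NFE2L2 encodes NRF2 itself (ENSG00000116044, chr2:177227595-177392697, minus strand, GRCh38). Its mRNA stood at 116, 107 and 117 CPM in the 3 libraries at 5% CO2 and at 124, 102 and 114 CPM at 10% CO2. With LPS it reached 682, 635 and 632 CPM at 5% CO2 and 741, 654 and 652 CPM at 10% CO2. Every library with LPS lay above every library without, and the groups at 5% and 10% CO2 overlapped at each LPS level. The LPS effect was 2.52 ± 0.09 (log2 change ± SE, 5.74-fold) at 5% CO2 and 2.59 ± 0.09 (6.03-fold) at 10% CO2, with adjusted p = 4.7e-14 and 2.8e-14. On the length-corrected scale NFE2L2 went from 74.3 ± 6.37 TPM at 5% CO2 to 366 ± 18.6 TPM with LPS (SD, n = 3), and from rank 2344 to rank 390 among the 16402 tested genes. NFE2L2 shares 17.6% of its exon bases with an unnamed gene on the same strand, whose counts came to 0.834% of its own. On the opposite strand it shares 190 bases with an unnamed gene (counts 0.177% of its own) and 54 bases with AGPS (26.5%). These percentages of counts pool all 12 libraries.

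KEAP1 (ENSG00000079999, chr19:10486120-10503741, minus strand) is the sensor that marks NRF2 for degradation. It measured 166, 171 and 153 CPM at 5% CO2, 144, 160 and 171 CPM at 10% CO2, 143, 138 and 149 CPM at 5% CO2 with LPS, and 130, 131 and 135 CPM at 10% CO2 with LPS. The libraries with LPS lay below those without at each CO2 level, with no overlap, by a small margin. At 10% CO2 KEAP1 fell by 0.26 ± 0.08 on the log2 scale with LPS (adjusted p = 0.0169), and at 5% CO2 the difference was -0.19 ± 0.08 (adjusted p = 0.101). The call at 10% CO2 was lost without any 1 of 4 libraries (10% CO2 replicates 2 and 3, and 10% CO2 with LPS replicates 1 and 2; adjusted p = 0.053, 0.074, 0.062 and 0.064), and a correction for GC content brought the change to -0.06 (adjusted p = 0.481). The ratio of NFE2L2 to KEAP1 mRNA, both in TPM, was 0.438 ± 0.0444 at 5% CO2 and 0.453 ± 0.0764 at 10% CO2, and 2.86 ± 0.167 and 3.25 ± 0.294 with LPS (SD, n = 3). KEAP1 mRNA was thus the more abundant of the pair in all 6 libraries without LPS, and NFE2L2 mRNA in all 6 with LPS. An exact two-sided permutation test of LPS within CO2 levels gave a log2 difference in this ratio of 2.78 with p = 0.005, the smallest that 400 arrangements allow, and 0.01 after adjustment over 4 ratio tests. The same exact test of CO2 within LPS levels gave 0.11 (p = 0.245, adjusted 0.327). The ratio tests were added after the levels had been seen, so the p for LPS describes a separation already visible.

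Both ferritin mRNAs rose with LPS, the heavy chain much more than the light chain. FTH1 (ENSG00000167996, chr11:61959718-61967660, minus strand) encodes the ferroxidase subunit that oxidises iron for storage. Its level was 783, 540 and 568 CPM at 5% CO2 and 624, 409 and 548 CPM at 10% CO2. With LPS it was 3317, 2441 and 3185 CPM at 5% CO2 and 3185, 3147 and 2791 CPM at 10% CO2. All libraries with LPS were higher than all without, and the CO2 groups overlapped. The LPS effect on FTH1 was 2.24 ± 0.18 (4.73-fold, adjusted p = 2.3e-06) at 5% CO2 and 2.53 ± 0.19 (5.77-fold, adjusted p = 5.6e-07) at 10% CO2.

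FTL (ENSG00000087086, chr19:48965301-48966878, plus strand) encodes the subunit that favours nucleation of the iron core. Per length it was the most abundant of the 10 in every library. That ranking rests on the summed exon lengths, 878 bases for FTL and 18985 for SOD2. In mean CPM, SOD2 was the higher with LPS, at 7057 against 3282 at 5% CO2 and 9728 against 3179 at 10% CO2. In CPM FTL stood at 2147, 1971 and 2075 CPM at 5% CO2 and 1905, 1893 and 2502 CPM at 10% CO2. With LPS it measured 3316, 2719 and 3812 CPM at 5% CO2 and 3196, 3258 and 3084 CPM at 10% CO2. The groups with and without LPS did not overlap at either CO2 level, and the CO2 groups did. FTL rose by 0.67 ± 0.11 (1.59-fold, adjusted p = 2.7e-04) at 5% CO2 and by 0.60 ± 0.11 (1.51-fold, adjusted p = 5.1e-04) at 10% CO2. Per length, FTL ranked 8, 10, 2 and 8 among all tested genes at 5% CO2, at 10% CO2, and with LPS at 5% and then 10% CO2. Its means there were 9221 ± 650.3, 8888 ± 1611, 12554 ± 1705 and 11157 ± 355.8 TPM (SD, n = 3).

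The ratio of light to heavy chain mRNA separated the libraries by LPS. FTL TPM divided by FTH1 TPM was 6.34, 8.43 and 8.44 at 5% CO2 and 7.06, 10.7 and 10.6 at 10% CO2. With LPS it was 2.31, 2.57 and 2.77 at 5% CO2 and 2.32, 2.39 and 2.55 at 10% CO2. The ratio was lower in all 6 libraries with LPS than in any of the 6 without. Its size rests on the summed exon lengths, 2030 bases for FTH1 and 878 for FTL, while its fold change with LPS does not. An exact two-sided permutation test within CO2 levels gave a log2 difference of -1.76 for LPS, with p = 0.005 (the smallest of 400 arrangements) and 0.01 adjusted over the 4 ratio tests. For CO2 within LPS levels the log2 difference was 0.10 (exact p = 0.455, also after adjustment). These tests too were added after the levels had been seen. FTH1 shares 62.4% of its exon bases with BEST1 on the opposite strand, whose counts pooled over all libraries came to 0.901% of those of FTH1. The strand setting is not given, so reads of this pair cannot be fully told apart. Both ferritin genes have many processed pseudogenes, 25 named for FTH1 and 16 for FTL in the tables, which held 0.368 to 0.701% and 0.0475 to 0.1% of the summed counts. Adding their counts left the LPS effects at 2.24 and 2.53 for FTH1 and at 0.67 and 0.60 for FTL.

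**Figure D2:**
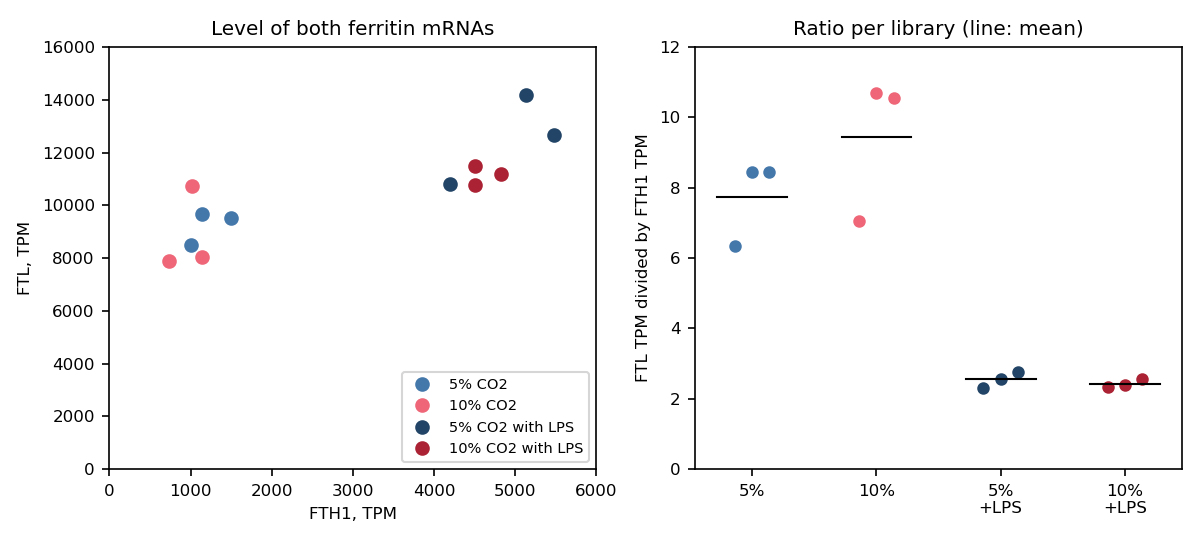
Left, FTL against FTH1 in TPM, 1 point per library; right, their ratio per library by group with the group mean (line). With LPS both rise, FTH1 by the larger fold, and the ratio falls from between 6.34 and 10.7 to between 2.31 and 2.77. The 2 axes of the left panel differ in range.

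SQSTM1 (ENSG00000161011, chr5:179806398-179838078, plus strand) encodes p62, an autophagy receptor that binds KEAP1 and takes it to autophagosomes. It measured 201, 149 and 151 CPM at 5% CO2 and 154, 113 and 144 CPM at 10% CO2. With LPS it measured 661, 403 and 527 CPM at 5% CO2 and 519, 354 and 391 CPM at 10% CO2. Libraries with LPS were all higher than those without. LPS raised SQSTM1 by 1.67 ± 0.21 (3.18-fold, adjusted p = 1.4e-04) at 5% CO2 and by 1.62 ± 0.21 (3.07-fold, adjusted p = 1.2e-04) at 10% CO2. Its exons overlap MRNIP and MGAT4B on the opposite strand, and the strand setting of the counting is not given in the sources used here, so reads of these pairs cannot be fully told apart.

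TXNRD1 and GCLM, which serve the thioredoxin and glutathione systems, differed by at most 0.41 on the log2 scale with LPS. TXNRD1 (ENSG00000198431, chr12:104215779-104350305, plus strand), the cytosolic thioredoxin reductase, was at 365, 293 and 312 CPM at 5% CO2, 321, 268 and 273 CPM at 10% CO2, 389, 332 and 357 CPM at 5% CO2 with LPS and 321, 322 and 311 CPM at 10% CO2 with LPS. Its LPS differences were 0.15 ± 0.09 and 0.14 ± 0.09 (adjusted p = 0.263 and 0.245), and the groups with and without LPS overlapped at each CO2 level. GCLM (ENSG00000023909, chr1:93885205-93909456, minus strand), the modifier subunit of glutamate-cysteine ligase, was at 121, 90.0 and 128 CPM at 5% CO2, 116, 96.0 and 100 CPM at 10% CO2, 140, 109 and 154 CPM at 5% CO2 with LPS and 139, 142 and 135 CPM at 10% CO2 with LPS. GCLM rose with LPS at 10% CO2 by 0.41 ± 0.13 (adjusted p = 0.0219), without overlap, and at 5% CO2 the difference was 0.25 ± 0.13 (adjusted p = 0.200), with overlap. The call at 10% CO2 was lost when replicate 2 or 3 at 10% CO2, or replicate 2 of the LPS group there, was left out (adjusted p = 0.086, 0.093 and 0.060) and with the GC correction (0.31, adjusted p = 0.051), and without 5% CO2 with LPS replicate 2 the difference for GCLM at 5% CO2 passed (0.39, adjusted p = 0.031).

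SRXN1 (ENSG00000271303, chr20:646615-653370, minus strand), sulfiredoxin, which reactivates over-oxidised peroxiredoxins, was the least abundant member, with 93 to 229 raw counts per library. It measured 7.23, 6.56 and 5.15 CPM at 5% CO2, 6.10, 5.78 and 4.11 CPM at 10% CO2, 11.9, 7.44 and 10.9 CPM at 5% CO2 with LPS and 7.86, 11 and 8.11 CPM at 10% CO2 with LPS. The libraries with LPS exceeded those without at each CO2 level, and the lowest of them came close to the highest without. SRXN1 rose by 0.67 ± 0.20 (1.60-fold, adjusted p = 0.0176) at 5% CO2 and by 0.75 ± 0.20 (1.69-fold, adjusted p = 0.0072) at 10% CO2. The call at 5% CO2 was lost when replicate 3 without LPS, or replicate 1 or 3 with LPS, was left out (adjusted p = 0.091, 0.091 and 0.068). An unnamed gene on the same strand covers 85.0% of the exon bases of SRXN1 and held 17 counts over all libraries. How reads on these shared bases were counted is not known here. The counts of SRXN1, and so its place as the least abundant member, may leave such reads out.

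HMOX1 (ENSG00000100292, chr22:35380361-35394214, plus strand), the inducible haem oxygenase and a classical NRF2 target in macrophages, varied most within groups. It measured 107, 51.9 and 78.0 CPM at 5% CO2 and 59.4, 24.6 and 74.4 CPM at 10% CO2. With LPS it measured 115, 46.4 and 78.3 CPM at 5% CO2 and 59.7, 22.3 and 49.7 CPM at 10% CO2. All 4 groups overlapped, and replicate 2 was the lowest library in each. The LPS difference for HMOX1 was 0.02 at 5% CO2 (95% interval -1.18 to 1.22, adjusted p = 0.99) and -0.27 at 10% CO2 (-1.49 to 0.96, adjusted p = 0.748). A change within those bounds was not detectable with this spread.

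SOD2 showed the largest change of the 10 genes with LPS. The identifier of SOD2 in the tables (ENSG00000112096, chr6:159669057-159762529, minus strand) was matched to SOD2 by position alone and covers 100% of the exon bases of SOD2 in GENCODE v44. Of its own exon bases, 4.43% lie outside that SOD2 model, and 9.05% are shared with SOD2-OT1, an overlapping noncoding gene, so its counts may include reads of that gene. Its level was 82.2, 68.9 and 75.6 CPM at 5% CO2 and 76.0, 81.3 and 66.2 CPM at 10% CO2. With LPS it reached 7657, 5759 and 7756 CPM at 5% CO2 and 10655, 9832 and 8698 CPM at 10% CO2. Libraries with and without LPS were separated by more than an order of magnitude, and with LPS the 3 libraries at 10% CO2 all exceeded the 3 at 5% CO2. LPS raised SOD2 by 6.54 ± 0.14 (93.4-fold, adjusted p = 4.9e-16) at 5% CO2 and by 7.03 ± 0.15 (131-fold, adjusted p = 2.0e-16) at 10% CO2. The exons counted for SOD2 span 18985 bases, so its TPM is low for its counts, at 15.6 ± 1.68 at 5% CO2 and 1249 ± 166 with LPS (SD, n = 3). They overlap WTAP and ACAT2 on the opposite strand, whose counts pooled over all libraries came to 11% and 1.87% of those of SOD2. The SOD2 total comes mostly from the libraries with LPS. Without LPS, SOD2 had 1249 to 1820 counts per library, and the percentages there were not computed. The strand setting is not given, so reads of these genes cannot be fully told apart.

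**Figure D3:**
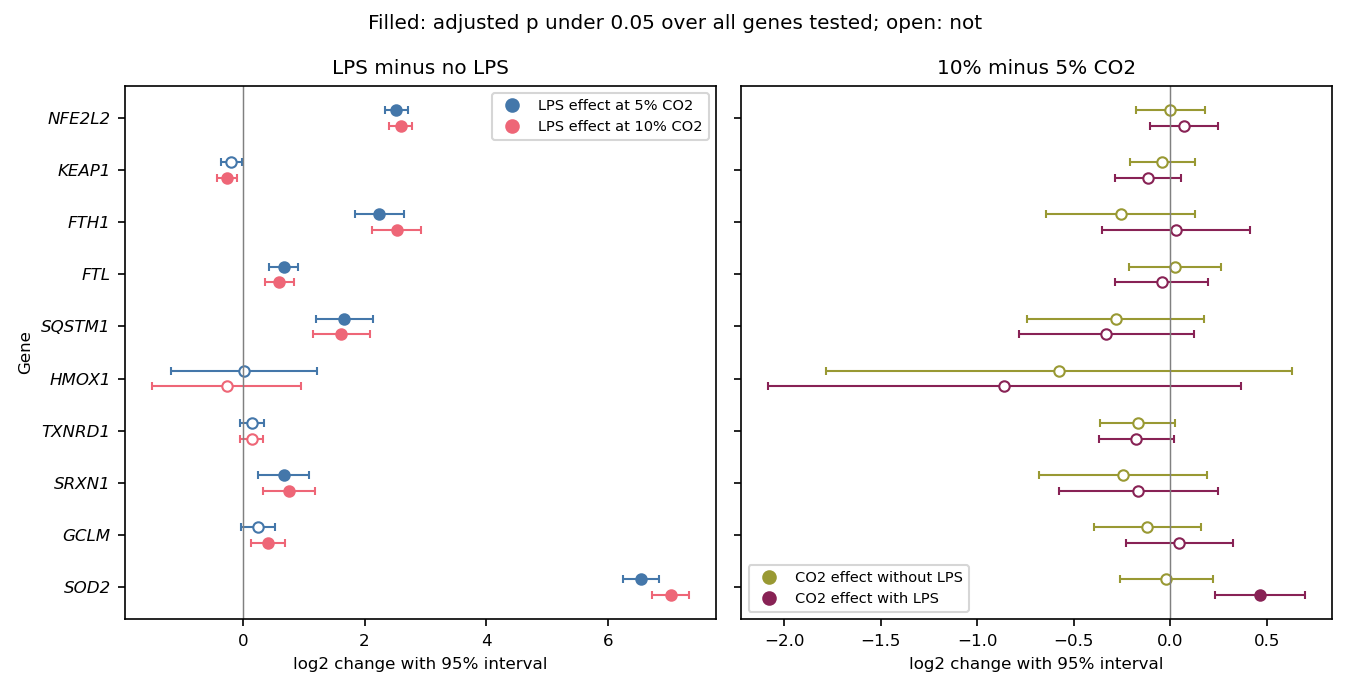
Log2 change with its 95% interval for each gene: left, LPS minus no LPS at each CO2 level; right, 10% minus 5% CO2 with and without LPS. Filled points passed the test at 0.05; in the right panel that holds for SOD2 with LPS alone, and the axes of the panels differ in scale.

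Raised CO2 without LPS changed none of the 10 genes by the test used. edgeR's quasi-likelihood test called 0 of 10, and 0 had an unadjusted p under 0.05. DESeq2 also called 0, and edgeR called 1.46% of all genes. With a replicate block HMOX1 was called, as the last section describes. The CO2 difference was negative for 9 of the 10 genes, with a median of -0.14 against -0.01 over all genes tested, and the groups overlapped for all 10. HMOX1 had the widest interval, at -0.58 (95% interval -1.79 to 0.63). For NFE2L2 the difference was 0.00 (-0.18 to 0.18), for KEAP1 -0.04 (-0.21 to 0.13) and for FTL 0.03 (-0.21 to 0.26). FTH1 and SQSTM1 were at -0.26 (-0.64 to 0.13) and -0.28 (-0.74 to 0.17), TXNRD1 at -0.17 (-0.36 to 0.02), SRXN1 at -0.25 (-0.68 to 0.19) and GCLM at -0.12 (-0.40 to 0.16). SOD2 was at -0.02 (-0.26 to 0.22).

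With LPS present, raised CO2 changed 1 of the 10 genes by the test used. SOD2 rose by a further 0.46 ± 0.11 (1.38-fold, adjusted p = 0.0187) at 10% over 5% CO2, where 8.75% of all genes were called (4.29% higher and 4.46% lower). SOD2 was also the only member with an unadjusted p under 0.05. DESeq2 also called SOD2 alone. With a replicate block SQSTM1 and HMOX1 were called as well, as the last section describes. The SOD2 call was lost when replicate 2 at 5% CO2 with LPS, or replicate 1 or 2 at 10% CO2 with LPS, was left out (0.34, 0.40 and 0.47, adjusted p = 0.073, 0.057 and 0.078). The summed level of the 12 monocytic markers was lower in the same libraries, at 2243 to 2475 CPM at 10% against 2615 to 2706 CPM at 5% CO2, and its part in the result was not tested. HMOX1 was at -0.86 (95% interval -2.08 to 0.36), SQSTM1 at -0.33 (-0.78 to 0.12), TXNRD1 at -0.18 (-0.37 to 0.02) and KEAP1 at -0.12 (-0.28 to 0.05). Groups did not overlap for SOD2, nor for KEAP1 and TXNRD1, which edgeR's quasi-likelihood test did not call (adjusted p = 0.397 and 0.242). The smallest two-sided exact p that 3 against 3 libraries allow is 0.1. The share of all genes whose groups did not overlap was not computed. SRXN1 was at -0.17, and NFE2L2, FTH1, FTL and GCLM were at 0.07, 0.03, -0.05 and 0.05.

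Whether CO2 altered the LPS response was asked with an interaction term, which subtracts the LPS effect at 5% CO2 from the one at 10% CO2. edgeR's quasi-likelihood test called 0 of the 10 genes and 0.0244% of all genes; DESeq2 called 0 of the 10, and 1, SOD2, had an unadjusted p under 0.05. The SOD2 difference was 0.48 (95% interval 0.15 to 0.82, adjusted p = 0.598), and without the filter on low counts it passed (0.45, adjusted p = 0.029). Averaged over LPS, CO2 differences were negative for 8 of 10 members with a median of -0.10, and 0 of 10 were called by edgeR or DESeq2 while 16.8% of all genes were (8.06% higher and 8.69% lower). TXNRD1 and SOD2 had an unadjusted p under 0.05. TXNRD1 was at -0.17 ± 0.07 (adjusted p = 0.0761), and it passed with the GC correction (-0.19, adjusted p = 0.035) or without 10% CO2 replicate 1 (-0.22, adjusted p = 0.024). SOD2 was at 0.22 ± 0.08 (adjusted p = 0.0680), and it passed without the filter on low counts (adjusted p = 0.0024) or without replicate 3 of 5% CO2 with LPS, 10% CO2 or 10% CO2 with LPS (adjusted p = 0.038, 0.043 and 0.045). HMOX1 (-0.72, 95% interval -1.58 to 0.14) and SQSTM1 (-0.31, -0.63 to 0.01) did not pass in the main fit. Calls of members differed with a replicate block, which is described in the last section.

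The rest of the pathway, 117 tested genes in 8 lists, moved in both directions with LPS. LPS raised 19 and lowered 14 at 5% CO2, 28.2% of the 117 against 24.9% of all genes called. At 10% CO2 it raised 28 and lowered 22, 42.7% against 35.2%. The median log2 change was 0.07 at each CO2 level. Among regulators that share NRF2's DNA element, MAFF, a small MAF partner, rose by 2.73 ± 0.19 and 3.12 ± 0.20, and NFE2L3, an NRF2 relative, by 3.12 ± 0.15 and 3.94 ± 0.15. PALB2, which also binds KEAP1, fell by 0.57 ± 0.10 and 0.47 ± 0.09 (each pair gives the LPS effect at 5% and then 10% CO2). In the glutathione list GPX3, a secreted peroxidase, rose by 2.77 ± 0.28 and 3.09 ± 0.28 and CHAC1, which degrades glutathione, by 0.80 ± 0.13 and 1.04 ± 0.13. GPX8, a peroxidase of the endoplasmic reticulum, fell by 1.23 ± 0.19 and 1.05 ± 0.18, and GLRX, a glutaredoxin, by 0.70 ± 0.14 and 0.85 ± 0.14. Of the 21 tested genes of this list, LPS raised 3 and lowered 2 at 5% CO2, and raised 4 and lowered 2 at 10% CO2. OPTN, like p62 an autophagy receptor, rose by 2.13 ± 0.14 and 2.98 ± 0.14.

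Genes of the NADPH, thioredoxin and detoxification lists moved either way. IDH1, which makes cytosolic NADPH, fell by 1.15 ± 0.11 and 1.42 ± 0.11 with LPS at 5% and 10% CO2. TXNIP, the thioredoxin inhibitor, fell by 1.09 ± 0.10 and 0.78 ± 0.10, and CBR1, a carbonyl reductase, by 0.80 ± 0.19 and 1.22 ± 0.18. NQO1, a quinone reductase widely used as a readout of NRF2, rose by 0.45 ± 0.12 and 0.37 ± 0.12, and the call for NQO1 at 5% CO2 was lost when replicate 2 without LPS or replicate 3 with LPS was left out (adjusted p = 0.063 and 0.11). In the superoxide list NCF1 rose by 0.87 ± 0.17 and 0.79 ± 0.17 with LPS at 5% and 10% CO2. It encodes a subunit of the phagocyte NADPH oxidase.

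Beside ferritin, LPS changed genes that import, export and sense iron. Of 19 tested genes of haem and iron handling, LPS raised 4 and lowered 3 at 5% CO2 (36.8% against 24.9% of all genes), and raised 5 and lowered 6 at 10% CO2 (57.9% against 35.2%). Whether these shares differ from those of all genes was not tested. SLC11A2 (DMT1), which imports ferrous iron, rose by 1.56 ± 0.13 and 2.27 ± 0.13, and NCOA4, the receptor that takes ferritin to lysosomes, rose by 0.91 ± 0.09 and 1.18 ± 0.09. SLC40A1 (ferroportin), the iron exporter, fell by 1.16 ± 0.14 and 1.32 ± 0.14. The others called at 5% CO2 were TFRC (0.56) and SLC39A14 (0.25), higher, and HMOX2 (-0.44), the constitutive haem oxygenase, and FBXL5 (-0.47), an iron-sensing ubiquitin ligase subunit, lower. HMOX2 and FBXL5 at 5% CO2 were picked for mention after their values were seen.

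The pathway genes called for CO2 included 3 of iron uptake. SLC39A14 (ZIP14), an importer of zinc and non-transferrin iron, rose at 10% CO2 by 0.67 ± 0.09 without LPS (adjusted p = 0.0086) and by 0.87 ± 0.09 with LPS (adjusted p = 1.7e-04). With LPS, CO2 also raised TFRC, the transferrin receptor, by 0.46 ± 0.08 (adjusted p = 0.0043) and SLC11A2 by 0.74 ± 0.12 (adjusted p = 0.0025). That makes 3 of 19 iron genes called with LPS, 15.8% against 8.75% of all genes. Whether these shares differ was not tested. The interaction was not called for SLC39A14 (0.20, adjusted p = 0.907), TFRC (0.22, adjusted p = 0.862) or SLC11A2 (0.71, adjusted p = 0.276). Over the 8 lists CO2 raised 2 of 117 genes without LPS (SLC39A14 and CBR1, 0.73 ± 0.18). With LPS it raised 9, also NFE2L3 (0.83 ± 0.13), OPTN (0.52 ± 0.13), CHAC1 (0.45 ± 0.13), PALB2 (0.40 ± 0.10), SESN1 (0.36 ± 0.09) and ME2 (0.36 ± 0.10). Of the interactions of the 117 genes 0 were called by edgeR, 6 had an unadjusted p under 0.05, and DESeq2 called 2. Averaged over LPS, CO2 raised 14 and lowered 5 of the 117, 16.2% against 16.8% of all genes. The genes raised included SLC39A14 (0.77), CBR1 (0.52), GLRX2 (0.45) and HMOX2 (0.34). Their averaged calls held when any 1 library was left out. Among the genes lowered were MAFG, a small MAF partner (-0.24 ± 0.06), EPHX1, an epoxide hydrolase (-0.31 ± 0.08), and IDH2, which makes mitochondrial NADPH (-0.21 ± 0.07). The call for MAFG was lost without 10% CO2 replicate 2 (adjusted p = 0.061) and that for IDH2 in 8 of the 12 fits that left out 1 library.

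The shares called without and with LPS, 1.71% and 7.69%, were near the 1.46% and 8.75% of all genes called. Without 10% CO2 replicate 2 the call for SLC39A14 without LPS was lost (adjusted p = 0.12). The call for CBR1 without LPS was lost in 8 of the 12 fits that left out 1 library. The calls for SLC39A14, TFRC, SLC11A2 and NFE2L3 with LPS held when any 1 library was left out, while those for OPTN, CHAC1, PALB2, SESN1 and ME2 did not. Across those 12 fits, 4 to 12 of the 117 were called for CO2 with LPS and 0 to 6 without.

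**Figure D4:**
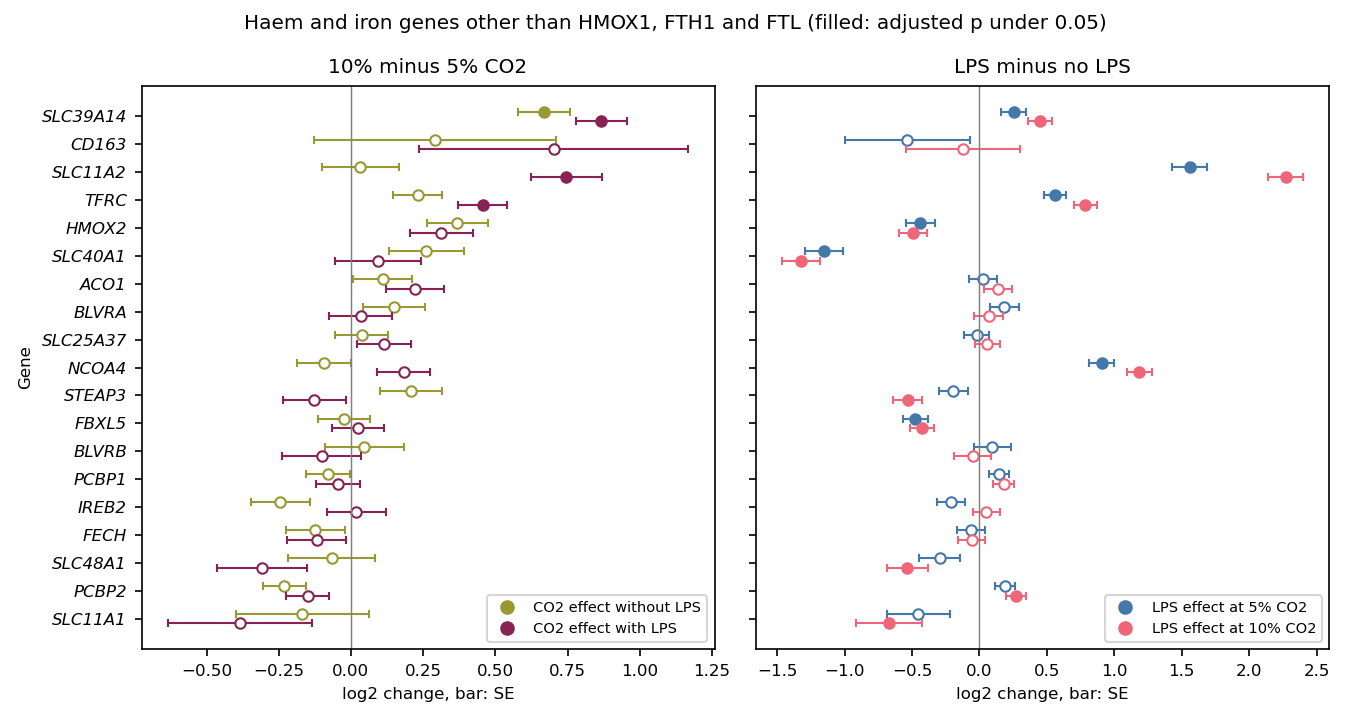
Log2 change (point) and its SE (bar) for the 19 tested genes of haem and iron handling: left, 10% minus 5% CO2; right, LPS minus no LPS. Filled points have an adjusted p under 0.05; SLC39A14 is filled in all 4 comparisons, TFRC and SLC11A2 in all but CO2 without LPS.

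For 8 members the tested gene with the most similar profile was found among 10697 genes, as the smallest root-mean-square difference of centred log2 CPM over the 12 libraries. NFE2L2 was closest to MTF1 (0.11), a metal-responsive transcription factor, KEAP1 to AMBRA1 (0.052), FTH1 to DENND5A (0.13), FTL to BSDC1 (0.10) and SQSTM1 to SAT1 (0.15). SRXN1 was closest to CCDC82 (0.20) and GCLM to ME1 (0.084), the malic enzyme that makes NADPH. SOD2 was closest to IL23A (0.32), the largest of these 8 distances. SOD2 itself also varied most, with a root-mean-square deviation of 3.40 from its own mean, against 0.136 for KEAP1. Libraries with and without LPS enter each distance, so these distances describe profiles only.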

How the data were processed

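Per the submitters' processing notes, the authors used Trimmomatic 0.36, STAR 2.5.2b and featureCounts (Subread 1.5.2) on GRCh38. The deposited tables, 1 per library, hold raw counts for each Ensembl gene identifier. Strandedness, multimapping and annotation release: not given in the sources used here. Columns of per-sample values left out numbered 0. Symbols were matched by identifier, and SOD2 by position in GENCODE v44.

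Groups and replicate numbers came from sample titles. Counts were fitted in edgeR 4.0.16 (R 4.3.3; filterByExpr, TMM, robust quasi-likelihood F test, 4 group means, all 12 libraries), with Benjamini-Hochberg adjustment over 16402 genes at 0.05. DESeq2 1.42.0 was an alternative. TPM used the tables' exon lengths. The test was checked on simulated data. Members and lists were chosen with earlier results of these data known. The 4 ratio tests, the GC correction and the refits of pathway genes were added after seeing the data. Named genes are the members, up to 3 called genes with the smallest p per list and comparison, and the gene most alike each member. A few genes that this rule names are not reported here. No 2 libraries of a group were the same within sampling noise (lowest chi-square per degree of freedom 8.91). Reads carry no molecular identifiers.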

Additional observations from a re-analysis of the deposited data

How the results depend on the processing

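LPS calls of NFE2L2, FTH1, FTL, SQSTM1 and SOD2 held at both CO2 levels under every alternative run, and no called change of a member reversed. The alternatives were DESeq2 size factors, DESeq2, no filter on low counts, only the groups compared, a replicate block, a GC correction and leaving out each library, with ferritin pseudogenes added for FTH1 and FTL. The cause of the changes below was not tested.

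Counts over all genes moved more. For CO2 without LPS (240 genes) they were 701 with DESeq2, 572 without the filter, 71 with only the groups compared and 798 with the GC correction, and 0 to 511 with 1 library left out, lowest without 10% CO2 replicate 2. For CO2 with LPS (1435) they were 271 to 1804 with 1 library left out, lowest without 10% CO2 with LPS replicate 2. For the interaction (4) they were 1 with DESeq2 size factors, 53 with DESeq2 and 108 without the filter, and 1 to 37 with 1 library left out. For CO2 averaged over LPS (2748) they were 1664 to 3005. Of the 10 members, CO2 with LPS called 0 to 1 and CO2 averaged over LPS 0 to 1 with 1 library left out. Without the filter the interaction called 1 and the averaged effect 1, SOD2 each time, and the GC correction called 1 averaged over LPS, TXNRD1. Pathway genes called for CO2 without LPS (2) were 11 with DESeq2, 7 without the filter and 11 with the GC correction, and with that correction 14 for CO2 with LPS (9) and 50 for LPS at 5% CO2 (33).

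The labels do not say what the replicate numbers mark. Of 18 pairs of libraries with the same number, 9 had deviations from their group means that correlated above 0.1 (range -0.14 to 0.29). Of 36 pairs with different numbers, 4 did (range -0.29 to 0.21). By mean correlation, 5 of 12 libraries were most like those of their own number. With a replicate block the members called were 1 for CO2 without LPS (HMOX1, -0.63, adjusted p = 0.039), 3 for CO2 with LPS (SOD2, SQSTM1 at -0.32 and HMOX1 at -0.88, the last 2 with adjusted p = 0.015 and 0.0038) and 4 averaged over LPS (SQSTM1, HMOX1, TXNRD1 and SOD2, at -0.30, -0.76, -0.17 and 0.22). Over all genes the block called 699 for CO2 without LPS and 11 for the interaction, and of the pathway genes 8 for CO2 without LPS. HMOX1, SQSTM1 and TXNRD1 were lower at 10% CO2 in 6 of 6 pairs of the same number, and replicate 2 held the lowest HMOX1 and SQSTM1 in 4 of 4 groups. With 3 libraries per group, HMOX1 gave the widest intervals, and SRXN1, at 93 to 229 counts, the lowest depth.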
